A study of Mus musculus with 8 samples.

Results

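The molybdenum cofactor genes described here are Mocs1, Mocs2, Mocs3, Gphn, Suox, Xdh and Aox1, 7 of the 51826 genes in the count table of mouse heart cardiomyocytes with and without the long noncoding RNA LncSync. They were taken by gene symbol, and the group was chosen by 1 measured result, the fold change of Mocs1 between genotypes, which was far below 0 in embryos and not in adults. All 7 passed the filter on low counts. The 4 groups were adult LncSync-/- hearts (KO adult), adult wild-type hearts (WT adult), LncSync-/- hearts at e13.5, a mid-gestation embryonic stage (KO e13.5), and wild-type hearts at e13.5 (WT e13.5), each with 2 libraries. Every group carried the strain label C57BL/6 and the cell type label cardiomyocyte, with heart as the source. The labels give neither the adult age, nor the way cells were isolated, nor the nature of the null allele. They also leave unsaid if replicates 1 and 2 are different animals, so the p-values measure only the spread between these libraries, which may be technical. The level of LncSync itself was not analysed here, and the genotypes are as labelled.

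The molybdenum cofactor is a pterin that holds a molybdenum atom in the active site of a handful of mammalian enzymes. Its synthesis starts in mitochondria, where the MOCS1 proteins turn GTP into cyclic pyranopterin monophosphate. The two-part enzyme encoded by Mocs2 then adds sulfur to give molybdopterin, MOCS3 reloads that enzyme with sulfur, and gephyrin, the product of Gphn, inserts the metal. Sulfite oxidase (Suox) uses the cofactor to turn toxic sulfite into sulfate, xanthine dehydrogenase (Xdh) to make uric acid from purines, and aldehyde oxidase (Aox1) to oxidise aldehydes and heterocycles. Loss of cofactor synthesis in people causes a severe neonatal disease that follows mainly from the loss of sulfite oxidase.

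Total counts ran from 16495084 to 20395600 per library, and 3 counts, the limit that a count of 0 allows, correspond to 0.103 to 0.207 CPM. CPM, the usual count unit scaled to library size, was taken after TMM scaling. The intervals and limits given for counts hold no error other than that of counting. Cardiomyocyte markers (8 of 8 detected in every library, such as Tnnt2 and Actc1) summed to 58545.5 and 76438.1 CPM in KO adults and 78508.3 and 77789.0 CPM in WT adults, and to 32938.4 and 12577.3 CPM in KO e13.5 and 28602.0 and 18146.7 CPM in WT e13.5 libraries. Other cells were present too. The 8 erythroid markers summed to 153774 and 22173.6 CPM in KO e13.5 and 42039.5 and 19485.2 CPM in WT e13.5 libraries, against at most 179.6 CPM in adults. In such bulk libraries, fewer cells of a type and less RNA per cell cannot be told apart. Same-numbered e13.5 libraries of both genotypes also stood apart together. The 7 fibroblast markers summed to 294.5 CPM in replicate 1 and 2951.9 CPM in replicate 2 of KO e13.5, and to 694.2 and 3316.6 CPM in replicates 1 and 2 of WT e13.5.

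The upstream sequences of 3 members are shown because their levels follow different courses. Mocs1 was low in KO e13.5 libraries, Mocs2 overlapped between genotypes at both ages, and Aox1 was high in adults of both genotypes. Each line holds the 250 bases before the RefSeq start of the gene (GRCm38.p6), 5′ to 3′ on the strand of the gene. Capitals mark the GC box (GGGCGG) and the CCAAT box (CCAAT) on either strand.
Mocs1, chr17:49428114-49428363, plus strand: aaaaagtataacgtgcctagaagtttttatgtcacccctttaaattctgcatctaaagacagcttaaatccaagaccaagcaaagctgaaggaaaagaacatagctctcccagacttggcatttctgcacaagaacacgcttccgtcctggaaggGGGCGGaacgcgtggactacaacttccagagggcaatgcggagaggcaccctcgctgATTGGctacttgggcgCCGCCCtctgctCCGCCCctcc
Mocs2, chr13:114817987-114818236, plus strand: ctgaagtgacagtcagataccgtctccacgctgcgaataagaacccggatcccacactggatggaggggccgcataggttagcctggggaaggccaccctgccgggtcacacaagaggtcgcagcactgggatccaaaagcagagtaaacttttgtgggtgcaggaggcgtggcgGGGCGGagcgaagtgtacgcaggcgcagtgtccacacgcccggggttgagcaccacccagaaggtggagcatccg
Aox1, chr1:58029719-58029968, plus strand: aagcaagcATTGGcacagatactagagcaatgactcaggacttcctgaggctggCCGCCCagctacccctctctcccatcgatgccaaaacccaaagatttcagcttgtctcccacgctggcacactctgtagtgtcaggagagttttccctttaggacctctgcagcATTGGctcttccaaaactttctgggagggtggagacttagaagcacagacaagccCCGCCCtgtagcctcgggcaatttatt
The Mocs1 sequence holds 3 GC boxes, at 95, 22 and 10 bases before the start, and 1 CCAAT box at 38 bases. The Mocs2 sequence holds 1 GC box at 75 bases, and the Aox1 sequence holds 2 GC boxes (196 and 27 bases) and 2 CCAAT boxes (242 and 82 bases). Over the 27025 RefSeq genes with such a sequence, 32.9% hold the GC box and 34.5% the CCAAT box. The TATA box (TATAAA) and the E-box (CACGTG), which 12.97% and 6.05% of these genes hold, are not among the letters of the 3 sequences. Upstream sequences were matched for 6 of the 7 members, all but Xdh. A match of letters describes the sequence and is not evidence of binding.

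Mocs1, which encodes the enzymes of the first step, had 0.500 and 0.633 CPM in KO e13.5 libraries, from 8 and 16 counts, against 11.7 and 11.2 CPM in WT e13.5 libraries, from 254 and 325 counts. The 2 KO libraries lay close together and far below both WT libraries. In adults Mocs1 had 20.0 and 16.2 CPM in KO and 17.8 and 15.3 CPM in WT libraries, and the genotypes overlapped. The gene (ENSMUSG00000064120) spans 49428362 to 49455435 of chromosome 17 in GRCm38, on the plus strand. Its fitted log2 fold change between KO and WT was -4.31 ± 0.50 (standard error) at e13.5, about 19.8-fold lower, and 0.13 ± 0.42 in adults. Because Mocs1 was chosen for this pattern, these values are a description, with no test. In the same comparison 0.0722% of the 16623 genes tested were called at an adjusted p below 0.05, 0.0602% higher and 0.012% lower in KO. The e13.5 value ran from -4.49 to -4.14 over all alternative fits, including those that leave out a library. These fits reuse the libraries by which Mocs1 was chosen, so the range is a description too. The standard error, 0.50 in the main fit, was 0.74 in the fit of the e13.5 libraries alone. In order, the group means were 18.1 ± 2.68 CPM in KO adults, 16.5 ± 1.74 CPM in WT adults, 11.4 ± 0.364 CPM in WT e13.5 and 0.567 ± 0.0941 CPM in KO e13.5 (SD, n = 2 each). The first 2 of these overlap, and the others do not.

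With age, Mocs1 differed far more in KO than in WT hearts, which follows from the same low e13.5 values. KO adult libraries exceeded KO e13.5 libraries by 4.97 ± 0.52 on the log2 scale, about 31.4-fold, and WT adult libraries exceeded WT e13.5 libraries by 0.53 ± 0.42. The difference of the 2 age changes was 4.44 ± 0.65, and it is also a description. Across all genes tested, the median age change was -0.15 in KO and -0.26 in WT.

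**Figure D1:**
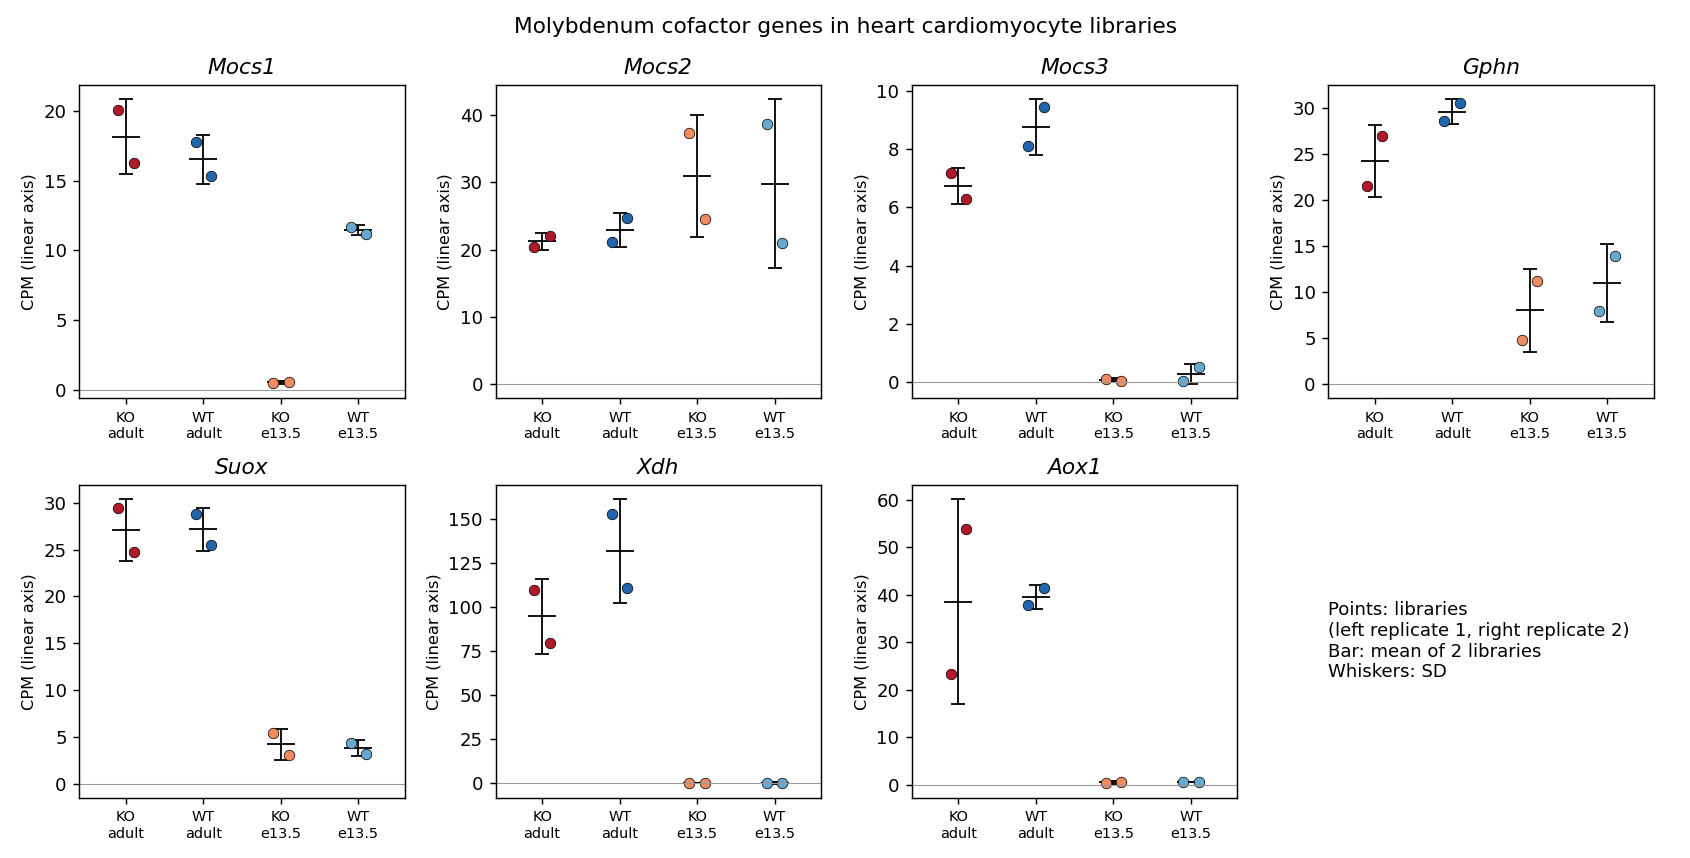
CPM of the 7 genes in each library (points, replicate 1 left and replicate 2 right), with the mean of the 2 libraries (bar) and SD (whiskers), in KO adult, WT adult, KO e13.5 and WT e13.5 hearts, on linear axes of different range. Mocs1 is at 0.500 and 0.633 CPM in KO e13.5 libraries and between 11.2 and 20.0 CPM in the other 6.

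No near-identical copy of Mocs1 or of the other members was found among the annotated transcripts (at least 95% identity over at least 50% of a transcript). A noncoding gene on the opposite strand, Gm20540, spans the Mocs1 start (49427938 to 49429240) without sharing exon bases with it. It had 2 and 3 counts in KO e13.5 and 0 and 5 counts in WT e13.5 libraries, and 0 in all adult libraries. The Gphn exons share 147 bases with Gm48226, a noncoding gene of the opposite strand, which had from 12 to 138 counts per library. The library kit does not mark the strand, so reads in that stretch cannot be assigned by strand to either gene. The strand setting of the counting is not given in the sources used here.

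Around Mocs1, 14 other genes are annotated within 500 kb, of which 9 are in the table and 2 passed the filter. Daam2, a formin gene that regulates actin assembly, ends 587 bases beyond the end of Mocs1 on the opposite strand. Its level was 3.63 and 5.03 CPM in KO e13.5 and 4.65 and 12.8 CPM in WT e13.5 libraries, and 12.1 and 8.62 CPM in KO adults and 9.78 and 4.96 CPM in WT adults. The genotypes overlapped at both ages, with a log2 fold change of -1.01 ± 0.61 at e13.5 and 0.49 ± 0.60 in adults. Kif6, a kinesin gene, had 0.813 and 0.119 CPM in KO e13.5 and 1.34 and 1.89 CPM in WT e13.5 libraries (log2 -1.84 ± 0.92), from 3 to 55 counts per library. The 2 KO libraries lay below the 2 WT libraries there. In adults Kif6 overlapped, with 1.05 and 2.05 CPM in KO and 1.63 and 2.69 CPM in WT libraries.

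The second step runs through Mocs2 and Mocs3. Mocs2 (chromosome 13, 114818236 to 114832275, plus strand) encodes both subunits of molybdopterin synthase. It had 37.4 and 24.5 CPM in KO e13.5 and 38.7 and 20.9 CPM in WT e13.5 libraries, and 20.4 and 22.1 CPM in KO adults and 21.1 and 24.7 CPM in WT adults. At e13.5 the 2 libraries of a genotype differed more than the genotypes did, with replicate 1 the higher in both. Its log2 fold change between KO and WT was 0.05 ± 0.45 at e13.5, given as a description, and -0.11 ± 0.45 in adults (edgeR, adjusted p = 1). With age it had -0.54 ± 0.46 in KO (adjusted p = 0.350) and -0.38 ± 0.45 in WT (adjusted p = 0.529), neither past the threshold.

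Mocs3 (chromosome 2, 168230622 to 168232594, plus strand), a gene without introns whose product also loads sulfur onto URM1 for tRNA thiolation, was near the detection limit in embryos. KO e13.5 libraries had 2 and 1 counts and WT e13.5 libraries 1 and 15 counts, so that a single WT library held nearly all of them. Adult libraries had 7.18 and 6.30 CPM in KO and 8.09 and 9.44 CPM in WT. Both KO adult libraries lay below the WT adult ones, at -0.38 ± 0.73 on the log2 scale (adjusted p = 1). Its fitted age difference, adult minus e13.5 on the log2 scale, was 6.36 ± 1.03 in KO and 4.87 ± 0.89 in WT, the WT value being 7.39 without WT e13.5 replicate 2. In KO the ratio of counts, 204 in adults to 3 at e13.5, was 92.7 after scaling, with a 95% counting interval of 31.3 to 453. Mocs3 passed the filter through adult libraries alone, so that only a rise could have been called, and these values are given with no test.

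Gphn (chromosome 12, 78226379 to 78684772, plus strand) encodes gephyrin, which also anchors glycine and GABA receptors at inhibitory synapses. It had 21.5 and 27.0 CPM in KO adults and 28.6 and 30.6 CPM in WT adults. At e13.5 it had 4.81 and 11.2 CPM in KO and 7.97 and 13.9 CPM in WT libraries. Replicate 2 was the higher at e13.5 in both genotypes, as it was for the sum of the fibroblast markers. Not every fibroblast marker did so. In WT e13.5, Dcn had 170.4 CPM in replicate 1 and 118.9 CPM in replicate 2, and Tcf21 had 12.4 and 11.7 CPM. The other fibroblast markers were higher in replicate 2 there. The part of fibroblasts in the level of Gphn was not tested. The genotype difference was -0.45 ± 0.52 on the log2 scale at e13.5, as a description, and -0.29 ± 0.51 in adults (adjusted p = 1), where the KO libraries lay below the WT libraries. Gphn rose with age in KO by 1.59 ± 0.53 (adjusted p = 0.0364), and in WT had 1.43 ± 0.52 (adjusted p = 0.0542), with adult libraries above e13.5 libraries in both. The KO call was lost without KO adult replicate 1 (adjusted p = 0.0806), KO adult replicate 2 (0.148), WT adult replicate 1 (0.0704), WT adult replicate 2 (0.0696) or KO e13.5 replicate 1 (0.168), and with upper quartile scaling (0.0505). In WT, Gphn was called with the replicate number as a block (adjusted p = 0.0188) and with DESeq2 (0.0197). The fitted difference of the 2 age changes, KO minus WT, was 0.16 ± 0.73 on the log2 scale. This value is a description, and whether the genotypes differ in the age change of Gphn was not tested.

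**Figure D2:**
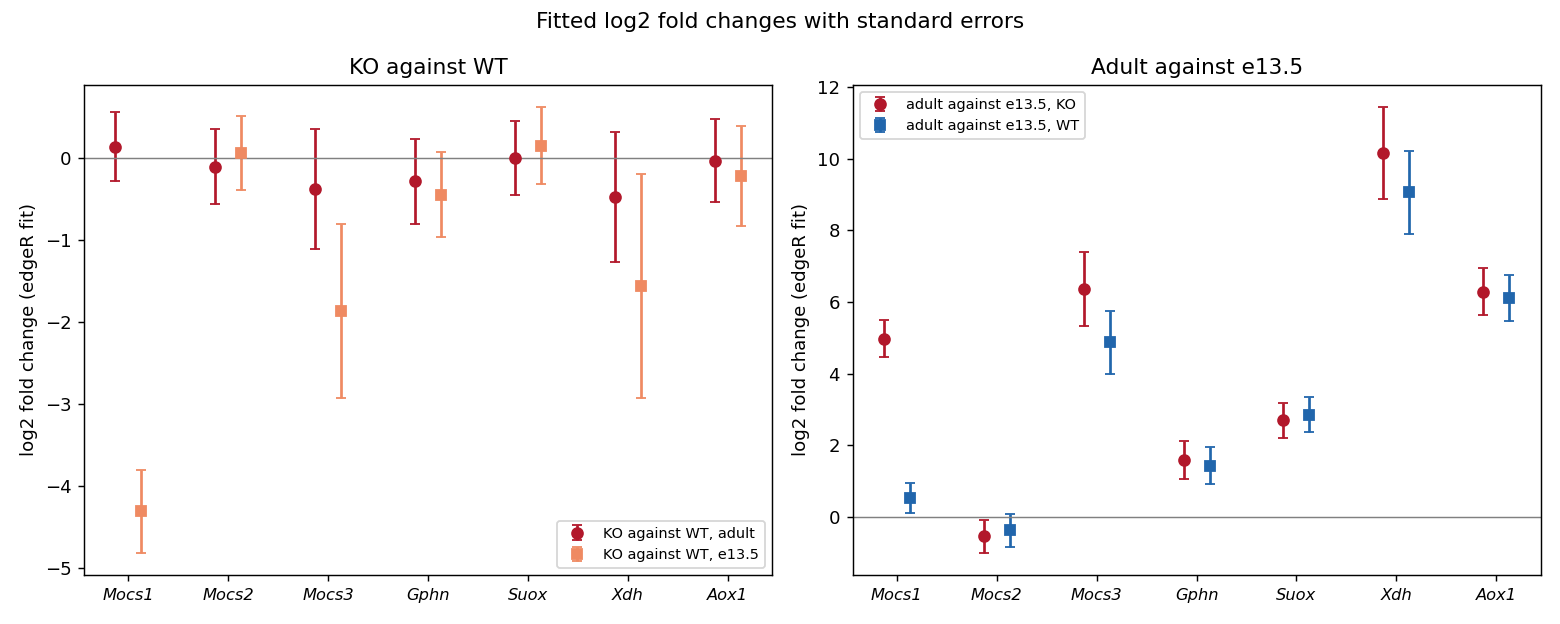
Fitted log2 fold changes (points) with standard errors (whiskers) of the 7 genes, KO against WT in adults and at e13.5 on the left, and adult against e13.5 in KO and in WT on the right. Mocs1 stands at -4.31 for KO against WT at e13.5, and the fitted age differences of Xdh, 10.15 in KO and 9.06 in WT, rest on at most 13 counts per e13.5 library.

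Among the enzymes that use the cofactor, Suox (chromosome 10, 128669894 to 128674073, minus strand) was detected at every age. It had 29.5 and 24.7 CPM in KO adults and 28.8 and 25.6 CPM in WT adults, against 5.38 and 3.01 CPM in KO e13.5 and 4.38 and 3.17 CPM in WT e13.5 libraries. All adult libraries lay above all e13.5 libraries, and the genotypes overlapped at both ages. Suox rose with age by 2.70 ± 0.49 in KO (adjusted p = 0.00257) and 2.85 ± 0.49 in WT (adjusted p = 0.00216). The genotypes differed by -0.01 ± 0.46 in adults (adjusted p = 1) and by 0.15 ± 0.47 at e13.5, as a description.

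Xdh (chromosome 17, 73883895 to 73950196, minus strand) is known from textbooks as an enzyme of liver, gut and capillary endothelium. It was at 109.9 and 79.7 CPM in KO adults and 152.6 and 111 CPM in WT adults. KO e13.5 libraries had 3 and 0 counts and WT e13.5 libraries 0 and 13 counts, so that 1 library of each genotype held none. Its fitted age difference was 10.15 ± 1.29 in KO and 9.06 ± 1.16 in WT. Without the e13.5 library that held the counts, it was 13.88 in KO (without KO e13.5 replicate 1) and 14.21 in WT (without WT e13.5 replicate 2). In KO the ratio of counts, 2871 to 3, was 1305 after scaling, with a 95% counting interval of 446 to 6332. Like Mocs3, Xdh passed the filter through adult libraries alone, and no test is given. The adult KO libraries lay just below the adult WT libraries, with -0.48 ± 0.79 (adjusted p = 1).

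Endothelial markers were detected at both ages. The 8 endothelial markers summed to 1747.7 and 922.3 CPM in KO adults and 963.7 and 701.9 CPM in WT adults, and to 696.1 and 653.3 CPM in KO e13.5 and 577.4 and 760.8 CPM in WT e13.5 libraries. With age, 2 of the 8 rose and 0 fell in KO, against 20.5% higher and 20.9% lower of all genes. In WT 0 rose and 1 fell, against 17.8% and 21.1% of all genes. The median log2 change of the 8 markers was 0.50 in KO and -0.06 in WT. The part of endothelial cells in the level of Xdh was not tested.

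Aox1 (chromosome 1, 58029931 to 58106413, plus strand) had 23.3 and 53.9 CPM in KO adults and 37.8 and 41.4 CPM in WT adults, and the 2 KO libraries enclosed the WT libraries. At e13.5 it had 0.313 and 0.633 CPM in KO and 0.553 and 0.585 CPM in WT libraries, from 5 to 17 counts. It rose with age by 6.29 ± 0.66 in KO (adjusted p = 2.59e-04) and 6.10 ± 0.65 in WT (adjusted p = 3.13e-04). The genotypes differed by -0.04 ± 0.51 in adults (adjusted p = 1), and by -0.23 ± 0.61 at e13.5 as a description.

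RNA of hepatocytes, in which Xdh, Aox1 and Suox are known to be abundant, was seen in 1 library of each adult genotype. The 7 hepatocyte markers summed to 78.7 CPM in KO adult replicate 2 and 53.4 CPM in WT adult replicate 2, against 3.95 and 2.15 CPM in replicate 1 of each. Alb, the defining marker, was at 56.2 and 38.8 CPM in those 2 libraries and at 0 in replicate 1 of both. Uox, the liver gene of urate oxidase, had 16 and 10 counts in them and 0 elsewhere. Xdh and Suox were lower in replicate 2 than in replicate 1 of both adult genotypes, and Aox1 was higher. The part of hepatocyte RNA in these levels was not tested.

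Between adult genotypes, none of the 6 members other than Mocs1 was called by edgeR at an adjusted p below 0.05. The count was 0 at an unadjusted p below 0.05 as well, and 0 with DESeq2. Among all 16623 genes tested, 0.0481% were called in that comparison, 0.0421% higher and 0.00602% lower in KO. All 6 fitted values were negative, between -0.48 and -0.01, with a median of -0.20 against 0.01 over all genes, and each standard error was larger than its value. With age, Suox, Aox1 and Gphn rose in KO and Suox and Aox1 in WT, out of the 4 members other than Mocs1 that did not owe the filter to adult libraries alone. The background was much higher there. In KO 41.4% of all genes were called, 20.5% higher and 20.9% lower in adults, and in WT 38.9%, 17.8% higher and 21.1% lower. The total called in KO, 6883 genes, was 4181 without KO adult replicate 1 and 3710 without KO adult replicate 2. In WT it was 6463, and 2990 and 3001 without WT adult replicates 1 and 2. The calls for Suox and Aox1 held in each of these fits.

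Levels of different members can be set against each other only per length. Per kb of the median coding transcript, Xdh led in adults, with 20.6 ± 4.64 CPM per kb in KO and 28.7 ± 6.41 in WT. Mocs2 followed with 18.4 ± 1.05 in KO and 19.9 ± 2.24 in WT, then Suox with 10.8 ± 1.34 in KO and 10.9 ± 0.925 in WT. The libraries of Xdh and Mocs2 overlapped in KO and not in WT. Aox1 came next, with 8.72 ± 4.90 in KO and 8.96 ± 0.568 in WT, then Gphn with 7.05 ± 1.13 in KO and 8.62 ± 0.399 in WT and Mocs1 with 7.01 ± 1.04 in KO and 6.38 ± 0.674 in WT. In KO the libraries of Suox and Aox1, of Aox1 and Gphn, and of Gphn and Mocs1 overlapped, and in WT those of Aox1 and Gphn. Mocs3 was last, with 3.42 ± 0.317 in KO and 4.44 ± 0.482 in WT. At e13.5 Mocs2 led, with 26.9 ± 7.88 CPM per kb in KO and 25.9 ± 10.9 in WT, and Xdh was last by mean in both. In KO e13.5 the libraries of Xdh and Mocs3 overlapped, and each gene had 3 counts in all. Mocs1 took the fourth place of 7 at e13.5 in KO, with 0.219 ± 0.0364 CPM per kb, and the second in WT, with 4.42 ± 0.141. The order depends on the length used. Per kb of merged exons, which include retained introns, Mocs2 was last of the 7 in adults of both genotypes. By mean, Suox was first and Xdh second in KO adults, with libraries that overlapped, and Xdh was first in WT adults. The mean of Gphn stood above those of Mocs1 and Aox1 in both. Its libraries overlapped with those of Mocs1 and of Aox1 in KO adults and not in WT adults. By that length the mean of Mocs1 was first and that of Mocs2 second in WT e13.5, where their libraries overlapped.

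The members were compared with 6 lists of genes around the pathway, which hold 51 genes in the table, 47 of them tested. Between genotypes none of the 47 was called. Of all genes tested, 0.0722% were called at e13.5 and 0.0481% in adults, so 0 calls say little about a list of 47. At e13.5 the count was 0 by edgeR and 0 by DESeq2, with 1 gene at an unadjusted p below 0.05, and in adults it was 0 by all of these. With age, 11 of the 47 (23.4%) rose and 7 (14.9%) fell in KO, and 11 (23.4%) rose and 9 (19.1%) fell in WT. These shares are near those of all genes tested, which were 20.5% and 20.9% in KO and 17.8% and 21.1% in WT. The lists that follow are small, and their counts are given beside the same shares. Of the 47, 41 passed the filter at both ages, and 10 of these rose and 6 fell in KO, and 9 rose and 8 fell in WT.

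**Figure D3:**
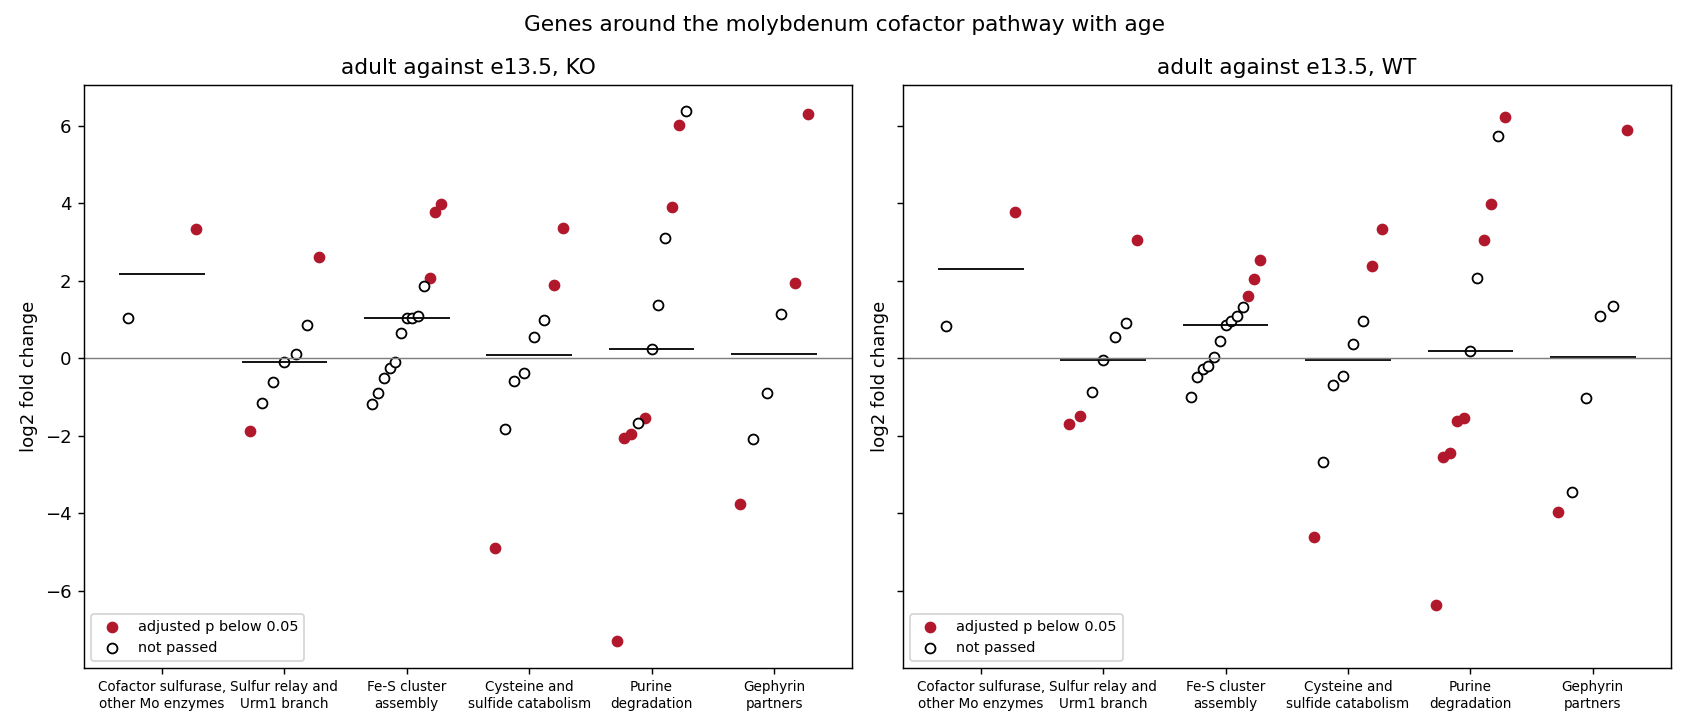
Log2 fold change of adult against e13.5 for each tested gene of the 6 pathway lists, in KO (left) and WT (right). Filled points passed an adjusted p of 0.05, open points did not, and the bar is the median of the list, which for iron-sulfur cluster assembly was 1.03 in KO and 0.85 in WT.

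In the list of the cofactor sulfurase and the other molybdenum enzymes, Mocos, the sulfurase that XDH and AOX1 need for activity, rose with age. It had 4.94 and 5.50 CPM in KO adults against 0.250 and 0.752 CPM in KO e13.5 libraries (log2 3.32 ± 0.71, adjusted p = 0.00550). WT adults had 4.77 and 4.27 CPM against 0.230 and 0.413 CPM in WT e13.5 libraries (log2 3.77 ± 0.73, adjusted p = 0.00368). Mtarc2 (Marc2 in the annotation), an amidoxime reductase of the mitochondrial membrane, had 45.1 and 30.8 CPM in KO adults, 37.5 and 35.1 CPM in WT adults, 2.81 and 33.9 CPM in KO e13.5 and 10.4 and 30.1 CPM in WT e13.5 libraries. It was low in replicate 1 and high in replicate 2 at e13.5 in both genotypes, and its age change did not pass (adjusted p = 0.368 in KO and 0.480 in WT). Its relative Mtarc1 and the other aldehyde oxidases Aox2, Aox3 and Aox4 did not pass the filter, with at most 20 counts in any library, so that Aox1 was the only aldehyde oxidase gene tested.

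The next list holds the sulfur relay that feeds MOCS3 and the URM1 branch that MOCS3 supplies. With age, 1 of its 7 genes rose and 1 fell in KO, and 1 rose and 2 fell in WT. That is 14.3% higher in each genotype, against 20.5% of all genes in KO and 17.8% in WT. Lower were 14.3% in KO and 28.6% in WT, against 20.9% and 21.1% of all genes. Mpst, a sulfurtransferase of cysteine breakdown, rose by 2.60 ± 0.54 in KO and 3.04 ± 0.55 in WT (adjusted p = 0.00486 and 0.00267). Ctu2, a tRNA thiolase that uses URM1, fell (log2 -1.89 ± 0.50 in KO and -1.49 ± 0.49 in WT; adjusted p = 0.0141 and 0.0375). Its level was 9.49 and 5.57 CPM in KO adults against 34.4 and 21.6 CPM in KO e13.5 libraries. Lyrm4, a partner of the cysteine desulfurase NFS1, fell (-1.70 ± 0.44 in WT, adjusted p = 0.0149) and had -1.17 ± 0.44 in KO (adjusted p = 0.0565).

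Iron-sulfur cluster assembly, which supplies the catalytic groups of the MOCS1A protein, had 3 of 13 genes that rose (23.1%, against 20.5% of all genes in KO and 17.8% in WT) and 0 that fell with age in each genotype. Among them were Glrx5, a cluster carrier, by 3.97 ± 0.65 in KO and 2.53 ± 0.61 in WT, and Iba57, a late assembly factor, by 2.08 ± 0.49 in KO and 1.60 ± 0.48 in WT. The adjusted p of these 4 values lay between 0.00153 and 0.0258. In the list of 8 on sulfite and its precursors, Cbs passed the filter through e13.5 libraries alone, which fixes the direction it could take. Of the other 7, 2 rose and 1 fell in each genotype. The shares of all genes were 20.5% higher and 20.9% lower in KO, and 17.8% and 21.1% in WT. Sqor, which oxidises hydrogen sulfide in mitochondria, rose beside Suox by 3.35 ± 0.48 in KO and 3.34 ± 0.48 in WT (adjusted p = 8.54e-04 and 9.11e-04). Got1, a cytosolic aminotransferase, rose by 1.88 ± 0.56 in KO and 2.38 ± 0.57 in WT. Cdo1, the dioxygenase that commits cysteine to sulfinate and so to sulfite or taurine, fell (-4.89 ± 0.81 in KO and -4.63 ± 0.79 in WT, adjusted p = 0.00160 and 0.00213). It had 0.264 and 1.26 CPM in KO adults against 27.7 and 17.9 CPM in KO e13.5 libraries, and WT adults had 0.524 and 1.24 CPM against 28.3 and 15.3 CPM in WT e13.5 libraries.

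In purine degradation, 4 of the 11 tested genes (Gda, Uox, Urah and Ampd1) passed the filter through 1 age alone, which fixes the direction they could take. Of the other 7, 1 rose and 3 fell with age in KO, and 1 rose and 4 fell in WT, against 20.5% higher and 20.9% lower of all genes in KO and 17.8% and 21.1% in WT. Gda, guanine deaminase, which makes the xanthine that XDH oxidises, is one of the 4, and its values are given with no test. Its level was 14.5 and 12.7 CPM in KO adults and 14.5 and 9.37 CPM in WT adults, against at most 0.317 CPM at e13.5. Ampd3, an AMP deaminase, rose by 3.90 ± 0.56 in KO and 3.98 ± 0.56 in WT, and its relative Ampd2 fell (-1.96 ± 0.53 in KO and -2.55 ± 0.55 in WT). Hprt, which salvages hypoxanthine and guanine before they reach XDH, fell (-2.07 ± 0.56 in KO and -1.56 ± 0.55 in WT, adjusted p = 0.0162 and 0.0489).

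Of the 6 tested binding partners of gephyrin, Glrb passed the filter through e13.5 libraries alone, which fixes the direction it could take. Of the other 5, 2 rose and 1 fell with age in KO, and 1 rose and 1 fell in WT. The shares of all genes were 20.5% higher and 20.9% lower in KO, and 17.8% and 21.1% in WT. The dynein light chain genes moved in opposite directions. Dynll2 rose by 6.29 ± 0.61 in KO and 5.88 ± 0.60 in WT (adjusted p = 2.23e-04 and 2.78e-04), while Dynll1 fell (-3.76 ± 0.68 in KO and -3.98 ± 0.69 in WT, adjusted p = 0.00258 and 0.00222). Nlgn2, a neuroligin of inhibitory synapses, rose by 1.93 ± 0.68 in KO (adjusted p = 0.0448) and had 1.35 ± 0.66 in WT (adjusted p = 0.130).

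The genes whose level followed that of Mocs1 most closely over the 8 libraries were named by Pearson's r of log2 CPM, as a description of 8 points that share 4 groups. They were Tob2, an antiproliferative factor, with r = 0.962, the glycosyltransferase gene B3gnt3 with 0.951, the F-box gene Fbxl7 with 0.946, the noncoding Gm20634 with 0.943 and Epsti1 with 0.938. All 5 were lowest in the KO e13.5 libraries, a pattern that their choice by r with Mocs1 favours. Gm20634 had 0.188 and 0.119 CPM there, the level of 3 counts in each library. Tob2 had 9.06 and 20.7 CPM in KO e13.5 and 60.2 and 61.3 CPM in WT e13.5 libraries, and 67.8 and 70.2 CPM in KO adults and 93.7 and 71.9 CPM in WT adults. B3gnt3 had 0.375 and 0.317 CPM in KO e13.5 and 6.04 and 5.78 CPM in WT e13.5 libraries. Unlike Mocs1, it was also lower in KO adults, with 7.38 and 3.51 CPM, than in WT adults, with 15.8 and 11.2 CPM. So was Gm20634, with 4.15 and 2.65 CPM in KO adults and 6.93 and 6.47 CPM in WT adults. The KO adult libraries of Tob2 lay just below the WT adult ones, and those of Fbxl7 and Epsti1 overlapped with them. Fbxl7 and Epsti1 were at most 2.24 CPM in every library. None of the 5 lies on chromosome 17. Among the members, r with Mocs1 was 0.744 for Gphn, 0.722 for Mocs3, 0.688 for Aox1, 0.685 for Xdh, 0.638 for Suox and -0.487 for Mocs2.

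**Figure D4:**
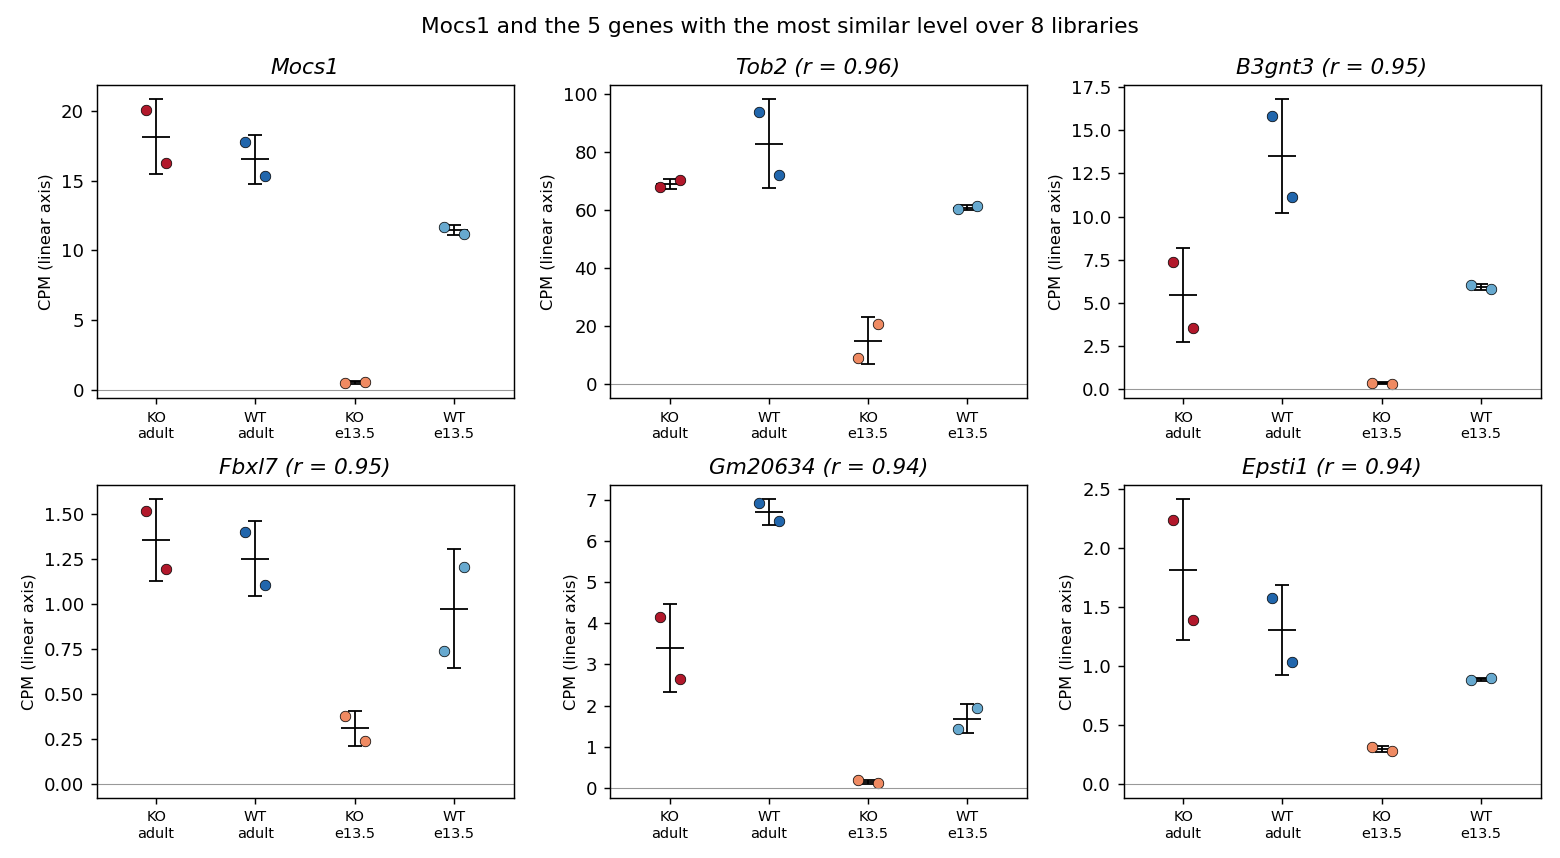
CPM in each library (points), with mean (bar) and SD (whiskers), of Mocs1 and the 5 genes of highest Pearson's r with it over 8 libraries, in KO adult, WT adult, KO e13.5 and WT e13.5 hearts, on linear axes of different range. In every panel the KO e13.5 libraries are the lowest, as for Tob2 with 9.06 and 20.7 CPM. The choice of genes by r with Mocs1 favours this pattern.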

How the data were processed

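RNA of heart cardiomyocytes was sequenced in 8 libraries, 2 for each of 4 groups. Per the labels' protocols, total RNA was amplified with Smart-seq2 and prepared with a SMARTer Ultra Low kit, which does not mark the strand. The authors deposited 1 table of expected counts (estimated counts) per gene, made with RSEM on mm10 per the submitters' processing notes. The aligner, like the versions and the annotation, is not given in the sources used here. The values are whole numbers whose totals differ between libraries, so no rounding was needed and they were taken as unscaled, although the table's name speaks of normalised input. Every column was used.

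Symbols, positions and lengths came from GENCODE vM21 (GRCm38) for 51633 of 51826 identifiers, and upstream sequences from RefSeq. Counts were fitted in R 4.3.3 with edgeR 4.0.16 (filterByExpr, TMM, quasi-likelihood test, 4 group means, all 8 libraries, 4 residual degrees of freedom), with adjusted p by Benjamini-Hochberg over 16623 genes, two-sided, and a threshold of 0.05. The script was tested on simulated data. Standard errors are the fold change divided by the square root of F. Similar transcripts were searched with BLAST 2.17.0. Log2 CPM used a prior count of 2. Alternatives were other filters and scalings, DESeq2 1.42.0, fits of the compared libraries alone, a replicate block and each library left out. Named genes were the 7 members, up to 4 called genes per list by smallest p (or the 2 of highest level), the 5 genes most like Mocs1, and tested neighbours within 500 kb. Of marker lists, the results of those for cardiomyocytes, endothelium, fibroblasts, hepatocytes and erythroid cells are given beside the results they touch. The members and lists were chosen with earlier results of these data known. The values of 1 listed gene are not reported here.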

Additional observations from a re-analysis of the deposited data

How the results depend on the processing

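Of the 28 fold changes of members, many are descriptions with no test. Those given with a passed test are the age changes of Suox and Aox1 in both genotypes and of Gphn in KO. None of these changed direction under any alternative. The calls for the rise of Suox and Aox1 with age held in all of them. Mocs3 and Xdh passed the main filter through adults alone, which favours a rise, so their age changes are given with no test. Both were also higher in adults of each genotype in the fit with no filter. Leaving out 1 library gave 5.67 to 7.22 for Mocs3 and 8.93 to 13.88 for Xdh with age in KO, and 4.21 to 7.39 and 8.32 to 14.21 in WT. Among values that had not passed, Suox in adult KO against WT, at -0.0052, was 0.011 with upper quartile scaling. Leaving out 1 library at a time gave -0.14 to 0.11 for Suox and -0.77 to 0.44 for Aox1 in that comparison, and -0.73 to 0.27 for Mocs2 with age in WT. Gphn with age in KO was not called with upper quartile scaling (adjusted p = 0.0505). In WT it was called with no filter, median-of-ratios scaling, DESeq2, haemoglobin, rRNA and mitochondrial genes left out of library sizes, without KO e13.5 replicate 1 or 2 or WT e13.5 replicate 2, and with the replicate block (adjusted p = 0.0188 with the block). At e13.5, leaving out 1 library gave -5.28 to 3.58 for Xdh and -2.72 to 0.65 for Mocs3, both near the detection limit, so depth limits what can be said of them there. It gave -0.29 to 0.72 for Mocs2, -1.17 to 0.02 for Gphn, -0.33 to 0.55 for Suox and -0.84 to 0.14 for Aox1.

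The count of changed genes in KO against WT, 12 at e13.5 and 8 in adults, was 87 and 64 with no filter, 30 and 54 with DESeq2, and 5 and 2 with the compared libraries alone. At e13.5 these were 32 higher and 55 lower, 16 higher and 14 lower, and 5 higher and 0 lower. In adults they were 29 higher and 35 lower, 23 higher and 31 lower, and 0 higher and 2 lower, none of the last 2 among the 8. The adult count was 13 with median-of-ratios scaling, of which 10 were higher and 3 lower against 7 and 1. The adult split was 9 higher and 3 lower with upper quartile scaling and 8 higher and 3 lower with those abundant genes left out. At e13.5 the split was 11 higher and 4 lower with median-of-ratios scaling, against 10 and 2. Leaving out 1 library gave 6 to 35 at e13.5 (35, of which 10 higher and 25 lower, when WT e13.5 replicate 1 was left out), 0 to 19 in adults (0 without WT adult replicate 1), 3710 to 7798 for age in KO and 2990 to 6965 for age in WT. The cause of these shifts was not tested. With the replicate block 12 and 9 genes were called in KO against WT. The labels do not say that same-numbered libraries share a litter or day, and their deviations correlated with 0.552 at e13.5 and 0.307 in adults. Other scalings moved the median age change of all genes to -0.35 in KO and -0.39 in WT at most (upper quartile), against -0.15 and -0.26.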
